A study of Mus musculus with 12 samples.

Results

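A pair of drug combinations was compared in the quadriceps of dystrophic mice: spironolactone plus lisinopril and eplerenone plus lisinopril, with 3 arrays each, so that 6 of the 12 arrays of the study carry the comparison. The arrays were chosen by their labels alone. All mice were male, 6 weeks old, on the C57BL/10 background and of genotype utrn+/-;mdx, so every group, the untreated one included, carried the mdx mutation of dystrophin and 1 mutated utrophin allele. Both combinations were given in medicated pellets from 4 to 6 weeks of age, with lisinopril at 20 mg/kg per day in each. Spironolactone was given at 100 mg/kg per day and eplerenone at 200 mg/kg per day. The doses of the antagonists therefore differ, and compound and dose cannot be told apart in any value below. The 3 untreated mice ate normal chow, and the last 3 mice received prednisolone at 1.5 mg/kg per day in drinking water. Neither lisinopril alone, drug-free pellets nor healthy muscle was among the groups.

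Spironolactone and eplerenone are steroidal spirolactones that block the mineralocorticoid receptor, a hormone-activated transcription factor that binds aldosterone and glucocorticoids. Eplerenone differs from spironolactone by an added epoxide bridge and by a methyl ester in place of the acetylthio group. Spironolactone is the less selective compound, since it also binds other steroid receptors, that for progesterone among them. Lisinopril inhibits angiotensin-converting enzyme and so lowers the formation of angiotensin II, a stimulus of aldosterone release. Skeletal muscle contains the mineralocorticoid receptor, and its blockade has been studied in dystrophic muscle for effects on damage, inflammation and fibrosis.

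The deposited values are log2 signals of transcript clusters, each a group of probes that reports 1 transcription unit. Of the 65587 clusters in the table, 30412 are paired with exactly 1 gene symbol and were tested. Differences below are spironolactone combination minus eplerenone combination on this log2 scale, with n = 3 arrays per group. They come from a limma fit to all 12 arrays with Benjamini-Hochberg adjustment over the tested clusters and a threshold of 0.05. Muscle genes mark the tissue as labelled: creatine kinase Ckm lay between 18.44 and 18.96 in the 12 arrays. Acta1 and Myh4 lay between 19.91 and 19.93 in every array, at the top of the scale, so narrow intervals for such bright clusters say little about the RNA. Array correlations ran from 0.9925 to 0.9961 within the spironolactone combination, from 0.9947 to 0.9953 within the eplerenone combination and from 0.9934 to 0.9956 between them. Spironolactone replicate 3 had the largest spread around its group, with a mean squared deviation of 0.0479, and correlated best with eplerenone replicate 3.

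No gene differed between the combinations past the threshold: limma called 0 of 30412 clusters (0%), with a smallest adjusted p of 0.998. An unadjusted p under 0.05 was reached by 1365 clusters (4.49%), 567 of them higher with spironolactone (1.86%) and 798 lower (2.62%). An unmoderated analysis of variance also called 0 clusters. The differences were small and centred near 0, with a median of -0.02 and the middle 95% of clusters between -0.35 and 0.31. In 25 clusters (0.0822%) the group means differed by a fold of 2 or more, the size named in the study design. Of these 25, 19 were higher and 6 lower with spironolactone, 4 had an unadjusted p under 0.05, and in 5 the arrays of the groups did not overlap. That balance rested on 1 array: without spironolactone replicate 3 there were 40 such clusters, of which 10 were higher, and with array weights 14, of which 6 were higher. Over all tested clusters the arrays of the groups did not overlap in 2943 (9.68%), with 1229 higher (4.04%) and 1714 lower (5.64%). With 3 arrays a side, the smallest p that exact permutation allows is 0.1. Among the 15206 brighter clusters the groups were apart and higher in 5.71% and apart and lower in 4.22%.

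**Figure D1:**
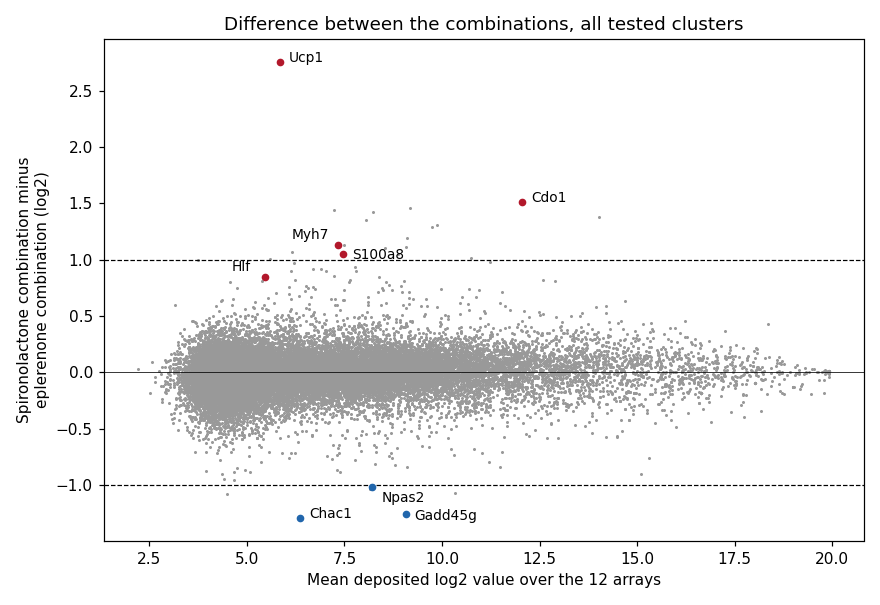
Each point is 1 of the 30412 tested clusters (red and blue, named genes higher and lower with spironolactone), placed by its mean deposited log2 value over the 12 arrays (horizontal axis) and by the difference of the combinations in log2 units (vertical axis); dashed lines mark a fold of 2 in either direction. Only 25 clusters lie on or beyond the dashed lines, 19 of them above, and Ucp1 stands highest at 2.76.

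How large a difference could have been missed was read from the intervals. The median half-width of the 95% interval was 0.283, a fold of 1.22. For 29622 clusters (97.4%) the whole interval lay within a fold of 2, and for 24514 (80.6%) within a fold of 1.5. Among the 15206 brighter clusters these shares were 96.3% and 79.5%. Among the 15206 dimmer clusters 98.5% lay within a fold of 2. In dim clusters, too, a narrow interval need not mean equal RNA. A pair of one-sided moderated tests against a fold of 2, adjusted over all clusters, placed 29973 clusters (98.6%) within it, and 26100 (85.8%) within a fold of 1.5. These bounds hold cluster by cluster. When the intervals were widened to hold for all clusters at once, 25313 (83.2%) lay within a fold of 4, 7745 (25.5%) within a fold of 2 and 48 within a fold of 1.5.

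The power of the design was computed from each cluster's own spread. With 80% power, an unadjusted p of 0.05 would be reached by a true difference of 0.396 in the median cluster. A single call over all clusters needs a p of 1.64e-06, and for that the median detectable difference was 1.40, a fold of 2.64. Averaged over clusters, a true fold of 2 in 1 gene would pass as a single call with a probability of 38.5%, a fold of 3 with 74.1% and a fold of 4 with 86.4%. A true fold of 1.5 would pass with a probability of 5.98%. The absence of calls therefore bounds isolated differences of a fold of 4 far better than those under a fold of 2, for which the intervals are the better guide. In 790 clusters the interval reached beyond a fold of 2. The widest reach was that of Ucp1, to 4.45.

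**Figure D2:**
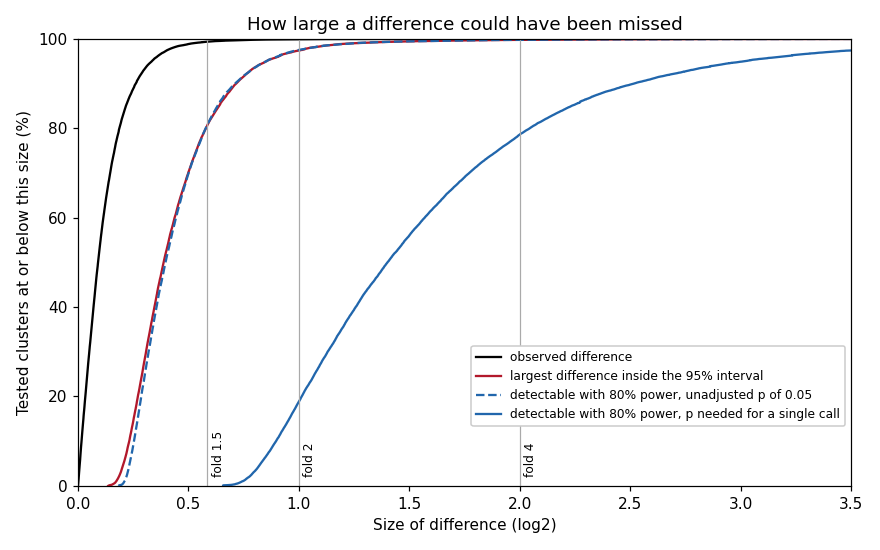
Cumulative share of the 30412 tested clusters (vertical axis, percent) against the size of a difference in log2 units (horizontal axis). The curve of the largest difference inside the 95% interval passes a fold of 1.5 at 80.6% and a fold of 2 at 97.4% of clusters, whereas the difference detectable as a single call with 80% power has a median of 1.40.

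The genes that differed from untreated muscle were then read in the direct comparison. Against untreated, limma called 25 clusters for the spironolactone combination (0.0822%) and 9 for the eplerenone combination (0.0296%), 28 in either. These comparisons share the untreated arrays, so only the direct differences separate the drugs. Direct differences of the 28 ran from -0.53 to 0.65, none passed the threshold, and 23 of the 28 intervals lay within a fold of 2 and 17 within a fold of 1.5. In 8 of the 28 the arrays of the combinations did not overlap, beside 9.68% of all clusters. These were 5 of the 19 called for spironolactone only and 3 of the 3 called for eplerenone only. Of the 6 called for both, 0 had groups apart. The calls used the same treated arrays, and a call for 1 combination favours groups that stand apart. The share over all clusters is therefore not a like comparison.

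The 4 genes given first were chosen after their values were seen, for direct differences close to 0. Cd14, the lipopolysaccharide co-receptor of monocytes and macrophages, was at 6.75, 6.91 and 6.88 with spironolactone, 6.87, 6.49 and 7.08 with eplerenone, and 8.31, 9.15 and 8.36 untreated. It fell by 1.76 with spironolactone (adjusted p = 0.028 in limma) and fell by 1.79 with eplerenone (adjusted p = 0.0235 in limma). The direct difference of Cd14 was 0.03 ± 0.21 (SE), with an interval from -0.42 to 0.49. Nfe2l2, the transcription factor of the oxidative stress response, was at 9.73, 9.73 and 9.66 with spironolactone and at 9.74, 9.70 and 9.64 with eplerenone, against 10.30, 10.61 and 10.40 untreated. Its direct difference was 0.01 ± 0.09 (SE), bounded by -0.19 and 0.21, the tightest bound of the 28. Cd80, a co-stimulatory ligand of antigen-presenting cells, differed by 0.06 (interval -0.31 to 0.44), and the transcription elongation factor Ell2 by 0.01 (-0.30 to 0.31).

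Other injury genes were bounded less tightly. Thbs1, a matrix protein of wounds, was at 12.40, 12.48 and 11.63 with spironolactone and at 12.34, 11.82 and 12.75 with eplerenone, against 14.21, 15.07 and 15.94 untreated. The direct difference of Thbs1 was -0.13 ± 0.41 (SE), and its interval from -1.04 to 0.78 does not exclude a fold of 2. Zfp36, a factor of mRNA decay, differed by -0.31 (-1.03 to 0.41) and the cytokine Il6 by -0.17 (-0.76 to 0.43). Plaur, the urokinase receptor, differed by -0.05 (-0.48 to 0.38), and the metallothionein Mt1 by 0.08 (-0.28 to 0.45).

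A few of the 28 stood further apart. Sntb1, a syntrophin of the dystrophin complex, was at 12.68, 11.66 and 11.91 with spironolactone and at 11.39, 11.61 and 11.41 with eplerenone, and at 10.83, 10.63 and 10.41 untreated. The 3 groups of Sntb1 did not overlap, and the direct difference was 0.61 ± 0.22 (SE; interval 0.14 to 1.09; adjusted p = 0.998 in limma), or 0.31 without spironolactone replicate 1. Rel, an NF-kB subunit, differed by 0.30 (0.14 to 0.46), the co-chaperone Sgta by -0.27 (-0.42 to -0.13) and Shisa4 by -0.34 (-0.59 to -0.08), each with groups that did not overlap. None of these differences passed the threshold after adjustment. Against untreated, Sntb1 was called for spironolactone only, and Rel, Sgta and Shisa4 for eplerenone only. Being called for 1 combination favours a direct difference, so the choice of these genes accounts for an unknown part of it.

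**Figure D3:**
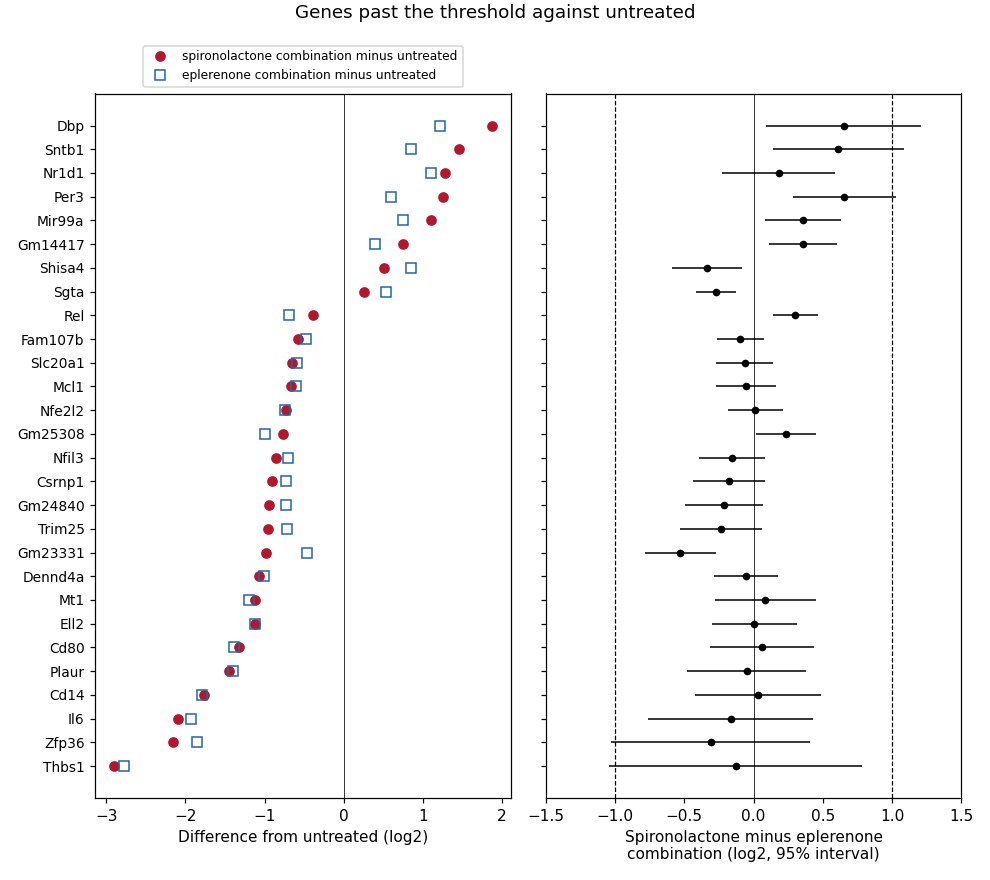
Left, difference of each combination from untreated in log2 units for the 28 genes past the threshold in either comparison (filled circles, spironolactone; open squares, eplerenone; n = 3 arrays a group). Right, the direct difference of the combinations with its 95% interval; dashed lines mark a fold of 2, and 23 of the 28 intervals lie between them.

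Receptors and targets on which the compounds are known to differ came next. Nr3c2, the mineralocorticoid receptor, was at 7.46, 7.43 and 7.60 with spironolactone and at 7.49, 7.51 and 7.26 with eplerenone. The groups overlap, and the difference of 0.08 ± 0.16 (SE) was bounded by -0.27 and 0.42. For Nr3c1, the glucocorticoid receptor, the difference was 0.18 (-0.16 to 0.51), and for the progesterone receptor Pgr 0.03 (-0.14 to 0.20). Pgr was dim, at 4.17 to 4.27 in the 6 arrays, whose medians over tested clusters were 5.70 to 5.78. Its narrow interval therefore says little about the RNA. Hsd11b2, the enzyme that inactivates glucocorticoids near the receptor, differed by -0.10 (-0.35 to 0.15). Hsd11b1, which regenerates active glucocorticoid, had a wide interval from -0.67 to 1.33.

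Genes known to respond to the mineralocorticoid receptor showed no common direction. Of 21 measured, 11 were lower and 10 higher with spironolactone, none passed the threshold, and the median difference was -0.01, beside -0.02 over all clusters. In 15 of the 21 the interval lay within a fold of 2, and the median ran from -0.03 to 0.08 when each of the 6 arrays was left out. Sgk1, the kinase that aldosterone induces in kidney, was at 10.11, 10.90 and 11.37 with spironolactone and at 10.86, 11.35 and 11.01 with eplerenone, a difference of -0.28 ± 0.28 (SE; interval -0.91 to 0.34). Fkbp5, a receptor co-chaperone, differed by -0.03 (-0.72 to 0.66) and Tsc22d3, which encodes GILZ, by -0.04 (-0.72 to 0.63). Zbtb16 at 0.58 (-0.55 to 1.71) and Per1 at -0.43 (-1.65 to 0.78) were bounded only loosely. The epithelial sodium channel subunits Scnn1a, Scnn1b and Scnn1g differed by -0.05, -0.06 and 0.03. Scnn1a was dim as well, at 4.90 to 5.12 in the 6 arrays, below their medians. In 3 genes the groups did not overlap, all higher with spironolactone (4.04% of all clusters): Rasl12 at 0.38 (0.07 to 0.69), the ubiquitin ligase Nedd4l at 0.21 (-0.08 to 0.51) and the adhesion protein Tns1 at 0.29 (-0.17 to 0.75).

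Lists for other steroid and xenobiotic receptors were as flat. The 11 progesterone-responsive genes had a median of -0.08, none had groups apart and all 11 intervals lay within a fold of 2. Among 35 glucocorticoid-responsive genes, none had groups apart and the median was -0.03, but 22 intervals lay within a fold of 2. That median was -0.19 without spironolactone replicate 3, and without replicate 1 it was 0.05. The drug-metabolism list, which holds targets of the xenobiotic receptors, had a median of -0.02 over 17 genes, with 16 bounded within a fold of 2. Cyp3a11 and Cyp2b10, the standard targets of these receptors in liver, differed by -0.10 (-0.34 to 0.14) and -0.17 (-0.40 to 0.05).

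Lisinopril was common to both groups, so the direct differences cannot show whether it acted. The genes of its pathway were read only for differences between the combinations. Ace, the target of lisinopril, was at 12.61, 12.75 and 13.46 with spironolactone and at 13.06, 13.58 and 13.19 with eplerenone. The difference of Ace was -0.34 ± 0.24 (SE; interval -0.87 to 0.20). Angiotensinogen, Agt, differed by -0.04 (-0.42 to 0.33) and the angiotensin receptor Agtr1a by -0.09 (-0.44 to 0.27). Of the 18 measured renin-angiotensin and kinin genes, none passed, the median was -0.09 and 17 intervals lay within a fold of 2. Without spironolactone replicate 1 the median was -0.02.

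The interferon-response list stood at the low end of the 42 lists. Type I and II interferons induce these genes through STAT and IRF factors, and infiltrating immune cells, vessels and fibres can all express them. All 40 measured members were lower with spironolactone (55.5% of all clusters were below 0), the median difference was -0.36, and in 10 of 40 the groups did not overlap (5.64% of all clusters were lower without overlap). None of the 40 passed the threshold, and 28 of the 40 intervals lay within a fold of 2. An unadjusted limma p under 0.05 was reached by 15 of the 40, beside 2.62% of all clusters in this direction. The members share their regulators and the same 6 arrays and are not independent.

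Promoters of these genes are shown to let the common element be seen. RefSeq windows of GRCm38.p6, from 250 bases before to 50 after the start, were found for 32 of the 40 members. The letters GAAA, then any 2 bases, then GAAA, the core of the interferon-stimulated response element, occurred on either strand in 18 of these 32 (56.2%) and in 3.85% of the 17961 tested symbols with a window. Stretches of 60 bases upstream of the start follow for the 4 members whose groups did not overlap and whose window holds these letters, and for Ifit1, whose groups overlapped. Each is read 5′ to 3′ on the gene's strand, and capitals mark the matches on either strand.
Rsad2, chr12:26456538-26456597, minus strand: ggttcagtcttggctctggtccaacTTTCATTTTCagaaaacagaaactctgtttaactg
Oas1a, chr5:120907526-120907585, minus strand: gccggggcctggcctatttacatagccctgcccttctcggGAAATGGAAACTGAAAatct
Oas3, chr5:120777700-120777759, minus strand: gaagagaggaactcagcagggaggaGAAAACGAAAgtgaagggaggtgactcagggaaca
Stat2, chr10:128270251-128270310, plus strand: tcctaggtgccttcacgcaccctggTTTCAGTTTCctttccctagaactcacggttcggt
Ifit1, chr19:34640760-34640819, plus strand: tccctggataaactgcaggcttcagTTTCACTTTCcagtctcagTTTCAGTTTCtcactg
Overlapping matches, as in Oas1a, are capitalised as 1 run. A match describes these letters and not binding.

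Among the members with the smallest p-values were several antiviral effectors. Mx1, a GTPase that blocks viruses, was at 6.26, 5.84 and 6.28 with spironolactone and at 7.03, 6.62 and 6.57 with eplerenone, against 6.56, 6.57 and 6.63 untreated. Its difference was -0.62 ± 0.14 (SE; interval -0.92 to -0.31; adjusted p = 0.998 in limma), and all 3 spironolactone arrays lay below all 3 of the others. Rsad2, which encodes viperin, was at 8.42, 8.10 and 9.22 with spironolactone and at 9.42, 9.57 and 9.23 with eplerenone. Here spironolactone replicate 3 nearly reached the eplerenone arrays, and the difference was -0.82 ± 0.23 (SE; -1.34 to -0.31). Oas1a, a sensor that makes oligoadenylate, was at 8.61, 8.11 and 8.24 with spironolactone and at 9.46, 8.72 and 8.64 with eplerenone, a difference of -0.62 ± 0.22 (SE; -1.10 to -0.14).

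Regulators in the list lay the same way. Stat2, a signal transducer of the type I receptor, differed by -0.56 (-1.09 to -0.03) without overlap. Irf7 differed by -0.71 (-1.36 to -0.05) and Usp18, the negative feedback regulator, by -0.78 (-1.29 to -0.26), both with overlap. At the other end of the list, Irf1 at -0.06 (-0.37 to 0.25) and the immunoproteasome subunit Psmb8 at -0.05 (-0.27 to 0.16) were near 0. Ifit1, whose promoter is shown above, differed by -0.65, but its interval from -1.60 to 0.31 was wide.

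The size of the pattern depended on single arrays, but the direction of its median did not. When each array of the combinations was left out in turn, the list median ran from -0.46 to -0.27. At least 33 of 40 members were below 0 each time. The median deviation of the 40 genes from their 12-array means was -0.02, -0.34 and 0.13 in spironolactone replicates 1 to 3, and 0.47, 0.32 and 0.07 in the eplerenone replicates. Spironolactone replicate 3 thus lay above eplerenone replicate 3, and the untreated arrays were at 0.34, 0.27 and 0.76. Without spironolactone replicate 2 the median was -0.27 and 33 of 40 were below 0. Without eplerenone replicate 3 the median was -0.46, and 28 of 40 then had groups apart where 12.0% of all clusters did so in this direction. Without spironolactone replicate 3, 23 of 40 had groups apart, against 14.9% of all clusters. Bulk RNA cannot tell fewer cells of a type from less RNA per cell.

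Antigen presentation genes, several of them interferon-inducible, lay the same way by less. Of 18 measured, 15 were lower with spironolactone, 3 had groups apart, all lower (5.64% of all clusters), and the median was -0.20. Without spironolactone replicate 2 the median was -0.13 and 11 of 18 were lower. Tap1, a peptide transporter also counted in the interferon list, lay between 7.57 and 7.80 with spironolactone and between 7.93 and 8.26 with eplerenone, a difference of -0.38 ± 0.15 (SE; -0.70 to -0.06). Its partner Tap2 differed by -0.20 (-0.37 to -0.03) and Tapbp by -0.20 (-0.40 to 0.00), both without overlap. The class II gene H2-Ab1 differed by -0.54 (-1.16 to 0.08), with spironolactone replicate 3 the highest of the 6 arrays at 14.44.

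No gene of the circadian clock passed the threshold, and members on both arms of the cycle had groups apart. The loop pairs activators that bind DNA (Arntl, Clock, Npas2) with the genes they drive (Per, Cry, Nr1d and the PAR factors Dbp, Tef and Hlf), and the members are out of phase with each other. Of 18 measured, 14 were higher with spironolactone, the median was 0.15, and the groups did not overlap in 4 that were higher and 1 that was lower, beside 4.04% and 5.64% of all clusters. Without spironolactone replicate 2 the median was 0.10, and without replicate 3 also 0.10. Hlf was at 6.14, 6.44 and 5.91 with spironolactone, at 5.33, 5.48 and 5.15 with eplerenone and at 5.68, 5.09 and 5.16 untreated. Its difference of 0.84 ± 0.17 (SE; interval 0.47 to 1.21; adjusted p = 0.998 in limma) did not pass, though the groups stood apart.

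Per3 was at 8.28, 8.37 and 8.12 with spironolactone, 7.59, 7.87 and 7.35 with eplerenone and 7.38, 6.69 and 6.95 untreated. Its direct difference was 0.65 ± 0.17 (SE; 0.28 to 1.03). Against untreated it rose by 1.25 with spironolactone (adjusted p = 0.0282 in limma), while the eplerenone difference of 0.60 did not pass (adjusted p = 0.225 in limma). Dbp was at 11.04, 11.15 and 10.80 with spironolactone and at 10.54, 10.69 and 9.81 with eplerenone, a difference of 0.65 ± 0.25 (SE; 0.09 to 1.21), or 0.38 without eplerenone replicate 3. The groups of both genes stood apart, but neither direct difference passed after adjustment.

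On the other arm, Npas2 was at 6.70, 6.97 and 7.71 with spironolactone and at 7.87, 8.13 and 8.43 with eplerenone, a difference of -1.02 ± 0.24 (SE; -1.54 to -0.49). Its untreated arrays, at 8.22, 8.12 and 8.08, lay within the range of the eplerenone arrays. Arntl, which encodes BMAL1, differed by -0.53 ± 0.21 (SE), with spironolactone replicate 3 at 8.55 inside the eplerenone range. Per2 differed by 0.92 (0.30 to 1.53), again with replicate 3 at 6.95 among the eplerenone arrays at 6.67, 7.17 and 6.68. Clock itself was flat at 0.01 (-0.13 to 0.16), Cry1 differed by 0.16 (-0.11 to 0.44) and Nr1d1 by 0.18 (-0.23 to 0.59). The hour at which each mouse was dissected is not given in the sources used here, and its part in these values was not tested.

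**Figure D4:**
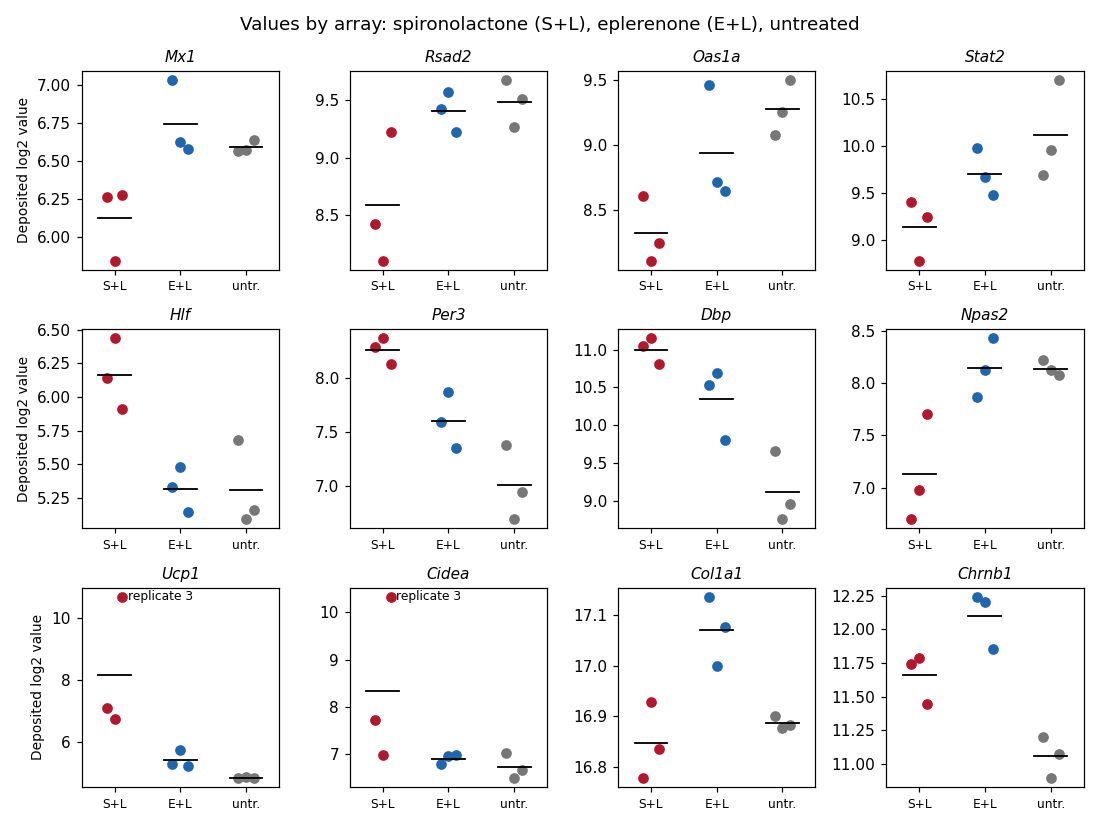
Deposited log2 values (vertical axis) of 12 genes in each array of the spironolactone (S+L), eplerenone (E+L) and untreated groups; points are arrays in replicate order from left to right and bars are group means of 3. The combinations do not overlap in any of these 12 genes, nor in 9.68% of all clusters. Most of the 12 were named by a rule that requires groups without overlap, so this is not a finding about them. Spironolactone replicate 3 is by far the highest array for Cidea and Ucp1, at 10.33 and 10.67. For Ucp1, spironolactone replicates 1 and 2, at 7.09 and 6.74, also lie above the highest eplerenone array, at 5.73.

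Adipocyte genes gave the highest list median and the weakest bounds. These genes encode the lipid storage, lipolysis and secreted proteins of fat cells, which lie between muscle fibres and around the muscle. Of 23 measured, 22 were higher with spironolactone, the median was 0.62, and 2 had groups apart and higher (4.04% of all clusters). None passed, and in 2 of 23 the interval lay within a fold of 2. Ucp1, the uncoupling protein of brown and beige fat, was at 7.09, 6.74 and 10.67 with spironolactone, at 5.28, 5.73 and 5.22 with eplerenone, and at 4.85, 4.86 and 4.85 untreated. All 3 spironolactone arrays were higher, replicate 3 by far the most, and the difference was 2.76 ± 0.77 (SE; interval 1.06 to 4.45; adjusted p = 0.998 in limma). Without replicate 3 the difference of Ucp1 was 1.51 (adjusted p = 0.145 in limma), still short of the threshold.

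The rest of the list followed that array. Cidea, a lipid droplet protein of the same cells, was at 7.72, 6.98 and 10.33 with spironolactone and at 6.79, 6.95 and 6.97 with eplerenone, so that its groups just failed to meet. Its difference of 1.44 (-0.16 to 3.04) became 0.45 without replicate 3. Adiponectin, Adipoq, was at 9.21, 7.95 and 10.89 with spironolactone and at 7.69, 8.12 and 8.92 with eplerenone, with replicate 2 inside the eplerenone range. Its interval ran from -0.53 to 2.74. Leptin, Lep, differed by 0.24 (-0.64 to 1.11) and the desaturase Scd1 by 0.31 (-1.63 to 2.26).

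Over the whole list the median deviation from the 12-array mean was 0.40, -0.30 and 1.67 in the spironolactone arrays and -0.45, -0.01 and 0.17 in the eplerenone arrays. The log2 of the summed level of the 23 genes ran from 18.78 to 20.22 with spironolactone, from 18.50 to 19.41 with eplerenone and from 18.17 to 18.62 untreated, and no marker was at 0 on any array. Without spironolactone replicate 3 the list's median was 0.01 and 12 of 23 were higher, and without replicate 2 it was 1.10.

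The clusters at a fold of 2 were largely of this kind. In 16 of the 19 that were higher, spironolactone replicate 3 was the highest of its group, and 5 of the 25 are on the adipocyte list. Without that array 8 of the 25 still differed by a fold of 2, 3 of them higher and 5 lower. Cdo1, a cysteine dioxygenase, was at 13.08, 11.03 and 15.33 with spironolactone and at 10.71, 11.60 and 12.59 with eplerenone, and its interval ran from -0.80 to 3.82. Pck1, the enzyme of gluconeogenesis and of glycerol formation in fat, was at 8.40, 7.28 and 11.94 against 7.39, 7.65 and 8.52. Such groups overlap, and the height of 1 array sets the mean. The part of fat-cell RNA in these differences was not tested.

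Genes of fatty acid uptake and oxidation were slightly higher with spironolactone. Of 29 measured, 22 were higher, 5 had groups apart, all higher (4.04% of all clusters), the median was 0.14 and 23 intervals lay within a fold of 2. Ppara, the nuclear receptor that drives these genes, was at 6.58, 6.64 and 7.13 with spironolactone, at 6.11, 6.32 and 5.90 with eplerenone and at 6.12, 6.39 and 6.42 untreated. Its difference was 0.67 ± 0.15 (SE; interval 0.34 to 1.01; adjusted p = 0.998 in limma), and 0.50 without spironolactone replicate 3. The mitochondrial enzymes Hadhb, Acadm and Acadl differed by 0.32 (0.01 to 0.63), 0.37 (-0.01 to 0.75) and 0.37 (-0.02 to 0.76), each without overlap. Acads lay the other way at -0.22 (-0.46 to 0.02). Without spironolactone replicate 3 the median was 0.15, and 12 of 29 were then below 0. Respiratory chain and biogenesis genes had a median of -0.06 over 34 genes, with no groups apart and 33 intervals within a fold of 2. Without eplerenone replicate 3 their median was -0.16 with 13 of 34 apart and lower (12.0% of all clusters), and without eplerenone replicate 2 it was 0.00.

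Matrix genes, a readout of fibrosis, were lower with spironolactone by small amounts. Of 43 measured, 30 were lower, 6 had groups apart, all lower (5.64% of all clusters), and the median was -0.10, with 34 intervals within a fold of 2. Col1a1, the main fibrillar collagen chain, was at 16.78, 16.93 and 16.83 with spironolactone, at 17.14, 17.00 and 17.08 with eplerenone and at 16.90, 16.88 and 16.88 untreated. The difference of Col1a1 was -0.22 ± 0.07 (SE; interval -0.38 to -0.07; adjusted p = 0.998 in limma), a bound well inside a fold of 1.5. Col5a2 at -0.31 (-0.51 to -0.10), Col5a1 at -0.23 (-0.41 to -0.05) and Col1a2 at -0.18 (-0.35 to 0.00) also had groups apart. The membrane protease Mmp14 differed by -0.58 (-1.03 to -0.14), but spironolactone replicate 3, at 12.99, lay inside the eplerenone range. Leaving out that array raised the count of matrix genes with groups apart and lower to 23 of 43, beside 14.9% of all clusters, and moved the median to -0.17. Fibroblast markers had a median of -0.06 over 17 genes and no groups apart. Their median without spironolactone replicate 3 was -0.28 with 10 of 17 apart and lower, and without replicates 1 or 2 it was 0.11 and 0.09.

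Neuromuscular junction genes, which are expressed by the fibre nuclei under the nerve ending, showed a similar small shift. Of 20 measured, 15 were lower with spironolactone, 5 had groups apart, all lower (5.64% of all clusters), and the median was -0.07. Chrnb1, an acetylcholine receptor subunit, was at 11.75, 11.79 and 11.45 with spironolactone, at 12.24, 12.20 and 11.85 with eplerenone and at 11.20, 10.90 and 11.07 untreated. Its difference was -0.44 ± 0.15 (SE; interval -0.77 to -0.11), and both combinations lay above every untreated array. Chrne, the adult receptor subunit, differed by -0.48 (-0.91 to -0.05) and the receptor-clustering protein Rapsn by -0.36 (-0.63 to -0.08). Without spironolactone replicate 3 the list's median was 0.00, with 10 of 20 lower, and without replicate 1 it was -0.14.

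No muscle gene of the lists that follow passed the threshold. The dystrophin gene Dmd was at 11.33, 11.31 and 11.20 with spironolactone and at 11.29, 11.28 and 10.91 with eplerenone, a difference of 0.12 (-0.27 to 0.52). Utrn differed by 0.15 (-0.09 to 0.39). The 34 atrophy genes had a median of -0.02, from -0.08 to 0.01 when each array was left out, with 29 intervals within a fold of 2. Their ubiquitin ligases Fbxo32 and Trim63 differed by -0.33 (-1.12 to 0.45) and -0.25 (-0.82 to 0.33). Regeneration genes had a median of -0.05 over 26 (-0.16 without spironolactone replicate 1 and 0.07 without replicate 3), none with groups apart, and embryonic myosin Myh3 was bounded only by -0.99 and 1.58.

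Fibre-type genes had contrasting bounds. All 25 fast fibre genes were bounded within a fold of 2. Their median was -0.10, or -0.01 without spironolactone replicate 1 and -0.03 without replicate 3. Myh4 lay at the top of the scale. Without spironolactone replicate 1, Mylpf, Myl1 and Atp2a1 each gave the same difference as Myh4, 0.008, with the same SE of 0.071. The bounds of such genes say little about the RNA. Slow fibre genes had a median of 0.08 with 11 of 21 bounded. Their median without spironolactone replicate 3 was 0.30 with 12 of 21 apart and higher (9.81% of all clusters), and without replicate 1 it was -0.06. Slow myosin Myh7 was at 8.84, 8.70 and 6.07 with spironolactone and at 7.57, 6.37 and 6.28 with eplerenone, so replicate 3 of the former was the lowest of all 6. Channel and calcium genes had a median of -0.10 over 22 (-0.01 without spironolactone replicate 3) with 3 groups apart and lower (5.64% of all clusters), among them the calcium channel subunit Cacng1 at -0.42 (-0.71 to -0.13).

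No immune cell marker passed the threshold, and the bounds were uneven. The 34 macrophage markers had a median of -0.01, no groups apart and 26 intervals within a fold of 2. Without eplerenone replicate 2 that median was -0.16, with 25 of 34 lower and 5 apart and lower (11.9% of all clusters). Cd68 was at 15.34, 15.28 and 14.26 with spironolactone and at 15.30, 14.66 and 15.91 with eplerenone, a difference of -0.33 (-1.13 to 0.47). Gpnmb, a glycoprotein of lipid-laden macrophages, differed by -0.90 (-1.79 to -0.01), or -0.35 without spironolactone replicate 3. Neutrophil markers were bounded in 7 of 18, and S100a8 could differ by anything from -1.58 to 3.68. Medians were -0.09 for T and NK cells, -0.10 for B and plasma cells and -0.07 for mast cells. Their lists had 2 of 23, 2 of 12 and 1 of 12 members apart and lower, beside 5.64% of all clusters. Of the 23 T and NK cell genes 19 were below 0, beside 55.5% of all clusters. The mast cell median was -0.23 without spironolactone replicate 3 and 0.09 without replicate 1. Jchain, the joining chain of secreted antibodies, was at 4.82, 4.74 and 4.91 with spironolactone and at 5.67, 5.22 and 5.15 with eplerenone, a difference of -0.52 (-0.85 to -0.19).

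Cytokine genes had a median of 0.01 over 39, with 24 intervals within a fold of 2. Immediate-early genes, which respond within minutes to handling and injury, had a median of -0.14 over 25 and were bounded in 12. The median was -0.47 without spironolactone replicate 3 with 14 of 25 apart and lower (14.9% of all clusters), and without replicate 1 it was 0.03 with 15 higher. Egr1 ranged from 7.59 to 9.42 within the spironolactone arrays, and its interval ran from -2.10 to 0.57. Heat shock and unfolded protein genes had a median of 0.13 over 21, with Xbp1 at 0.48 (0.10 to 0.86) and groups apart. That median was 0.30 without spironolactone replicate 3 with 13 of 21 apart and higher (9.81% of all clusters), and without replicate 2 it was 0.05.

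Further metabolic and structural lists held no gene past the threshold either. The 6 polyamine genes had a median of 0.04 (from -0.08 to 0.20 when each array was left out) and all 6 were bounded within a fold of 2, with Odc1, the rate-limiting enzyme of the pathway, at 0.11 (-0.45 to 0.67). Genes of cholesterol and fatty acid synthesis had a median of 0.14 over 16 (0.06 without spironolactone replicate 3 and 0.26 without eplerenone replicate 3), with 11 bounded, and fatty acid synthase Fasn had the widest reach of them, to 4.13. Glucose handling genes had a median of -0.01 over 23 with 3 groups apart, all lower (5.64% of all clusters). Cell cycle genes had a median of 0.04 over 23 with no groups apart and 21 bounded. That median was -0.16 without spironolactone replicate 1, -0.16 without eplerenone replicate 2 and 0.27 without spironolactone replicate 3. Endothelial markers had a median of -0.09 over 20 (from -0.18 to 0.02 when each array was left out), and all 16 smooth muscle and pericyte markers were bounded within a fold of 2.

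Further genes were taken from those with the smallest p-values among clusters whose groups were apart by a fold of at least 1.5. Ppbp, a platelet chemokine, was at 6.23, 6.87 and 6.86 with spironolactone, at 5.70, 5.52 and 5.84 with eplerenone and at 6.42, 6.65 and 6.87 untreated. The difference of Ppbp was 0.97 ± 0.19 (SE; interval 0.55 to 1.38; adjusted p = 0.998 in limma), and its spironolactone arrays lay near the untreated ones. Chac1, which degrades glutathione and is induced by the ATF4 stress pathway, was at 5.59, 5.40 and 5.86 with spironolactone and at 6.30, 7.02 and 7.41 with eplerenone. Its difference of -1.29 ± 0.27 (SE; interval -1.89 to -0.70; adjusted p = 0.998 in limma) ran from -1.60 to -1.04 when each of the 6 arrays was left out. Lyve1, the hyaluronan receptor of lymphatic vessels and a member of the endothelial list, differed by 0.73 (0.22 to 1.24), and Ly96, the co-receptor MD-2 of Toll-like receptor 4, by 0.81 (0.24 to 1.39). None of these passed after adjustment.

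**Figure D5:**
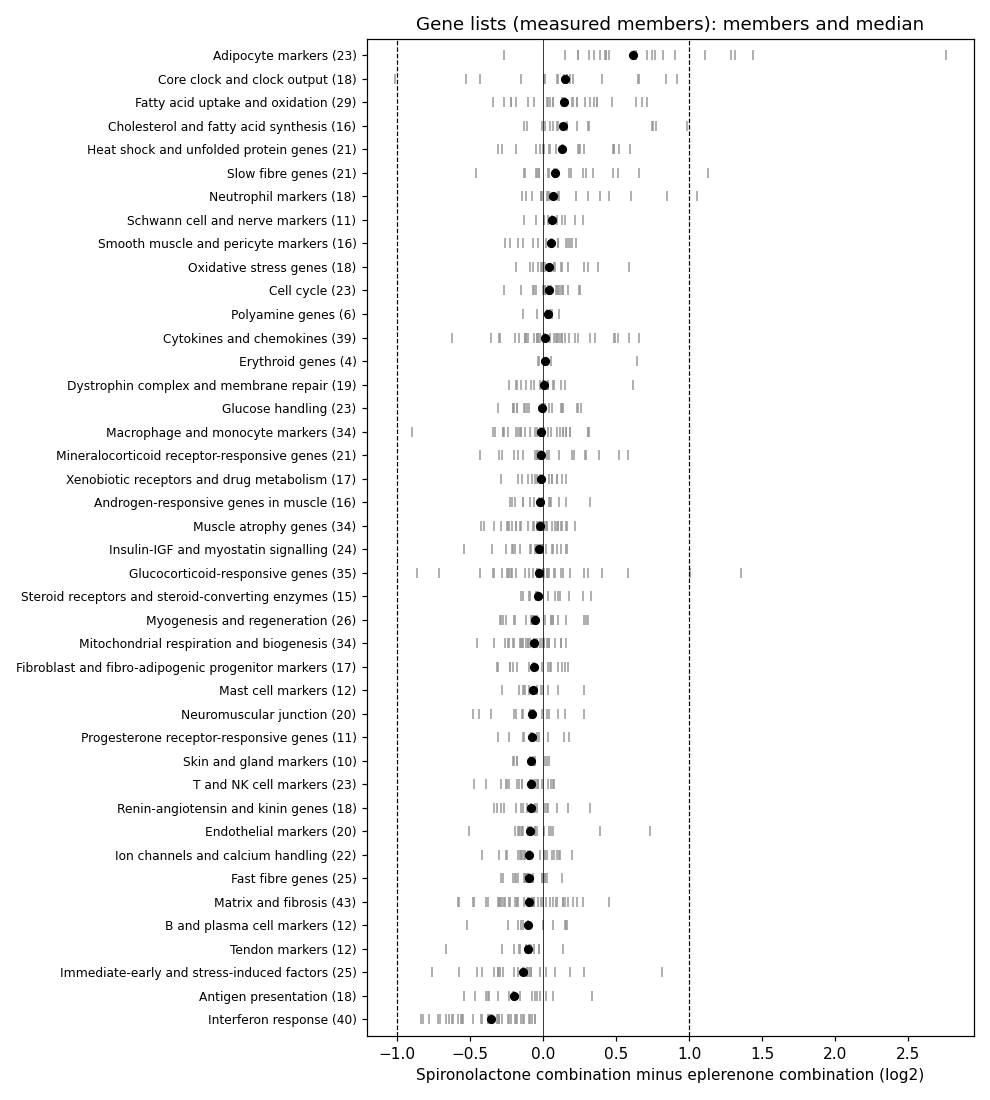
Differences of the combinations in log2 units (horizontal axis) for the members of 42 gene lists, with the number of measured members in brackets; ticks are genes, black points list medians and dashed lines a fold of 2. The medians of 40 lists lie within 0.25 of 0, those of the interferon and adipocyte lists lying outside at -0.36 and 0.62.

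Across all 42 lists, which hold 806 measured genes, 0 genes passed the threshold in limma, and 40 medians lay within 0.25 of 0. Which lists lay outside depended on the arrays. Without spironolactone replicate 3 the adipocyte median was 0.01 and the interferon median -0.43. The immediate-early and heat shock medians, at -0.47 and 0.30, were then among those outside. The lists in which the fewest members were bounded within a fold of 2 were those of adipocyte (2 of 23), neutrophil (7 of 18), immediate-early (12 of 25) and slow fibre genes (11 of 21).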

How the data were processed

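Quadriceps RNA of 12 mice was hybridised to 12 Affymetrix arrays. The series table holds log2 values made by the authors by RMA; Affymetrix Expression Console and Transcriptome Analysis Console appear in the submitters' processing notes. Their versions, the build and the annotation release were not given in the sources used. Clusters were named from the platform's probe table after repeated symbols of a cluster were collapsed, which left 30412 with 1 symbol, 2118 with several and 33057 with none. Gene IDs served to update 827 symbols.

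A limma 3.58.1 fit (R 4.3.3) of group means used all 12 arrays, with eBayes without trend, 8 residual and 2.94 prior degrees of freedom and two-sided tests. Intervals are 95% moderated intervals per cluster. Power used the noncentral t distribution at 80%. The number of arrays limits the precision. Scripts were tested on simulated data. P-values measure the spread between the arrays of a group, pooled over all 4 groups. The titles call these arrays biological replicates. Where groups differ in spread, an interval does not reflect the arrays of the combinations alone. For Ucp1 the SD was 2.17 with spironolactone and 0.28 with eplerenone, and the untreated arrays lay at 4.85 to 4.86. For S100a8 the untreated arrays, at 7.14, 12.93 and 12.03, enter the interval.

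Named genes were the 10 smallest p-values in each direction among clusters with non-overlapping groups and a fold of at least 1.5, 25 fixed genes of which 23 were measured, genes past the threshold against untreated, and up to 4 members of each of 42 lists by p. The text describes only a part of these, picked with their values known. Clusters at a fold of 2 and further list members were named after their values were seen. In the text, predicted genes and small RNAs were only counted. The gene of a list with several clusters was represented by the brightest. The comparison, the members and the lists were chosen with earlier results of these data known. Alternatives changed the arrays fitted, the moderation, the normalization, the clusters tested, array weights, a replicate block and each array in turn. Promoter windows came from RefSeq, build GRCm38.p6.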

Additional observations from a re-analysis of the deposited data

How the results depend on the processing

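Under all 23 alternatives run, 0 clusters passed the threshold, with a smallest adjusted p of 0.145, without spironolactone replicate 3, and of 0.246 in the unmoderated analysis of variance. The count at a fold of 2 was 25; it was 59 over all clusters of the table and 14 with array weights, and from 19 to 76 when each array was left out (76 without spironolactone replicate 2, 40 without replicate 3, 46 without eplerenone replicate 3). The share bounded within a fold of 2 ran from 95.3% to 97.6% when each array was left out, and the median difference detectable at an unadjusted p of 0.05 from 0.384 to 0.448. Fitting the 6 arrays alone left the bounded share at 97.4% and raised the difference detectable as a single call to 2.13. Of 92 named genes with 2101 values under the alternatives, 0 passed the threshold, and 33 values in 18 genes had the other sign; a direction was taken as turned around only where a value had passed. Of 963 list medians, 24 moved by more than the spread of the same list between the arrays of a combination. A list driven by 1 array has a wide spread, so this count cannot show that the medians are stable. The adipocyte median, 0.62 with all arrays and 0.01 without spironolactone replicate 3, was not counted as moved. Counts within lists without single arrays were added after the data were seen. Deviations of same-numbered arrays of the combinations had correlations of 0.104, 0.0741 and -0.0125. Spironolactone replicates 1 and 2 each matched best the eplerenone array of the same number, and replicate 3 matched best eplerenone replicate 2. With 3 arrays a group these values cannot show whether the numbers pair anything. With the replicate block 0 clusters passed, 25 were at a fold of 2, 97.3% were bounded and 0.402 was detectable. Clusters at the top of the scale (51 with a mean above 19.5) cannot show a difference well.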

Other observations

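Clusters without exactly 1 symbol were left out of the comparison above. Of these 35175 clusters, 34 differed by a fold of 2 and 1970 (5.6%) had an unadjusted limma p under 0.05. When all 65587 clusters were tested together, 0 passed the threshold, with a smallest adjusted p of 0.997 in limma.

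Adipocyte genes were also high in an array of the prednisolone group. The list's median deviation was 1.10 in prednisolone replicate 1, and -0.51 and -0.03 in replicates 2 and 3. In the same 3 arrays Adipoq was at 10.16, 7.74 and 8.59 and Scd1 at 17.74, 13.84 and 15.79. Ucp1, by contrast, was at 4.89, 4.78 and 5.16 there, beside 10.67 in spironolactone replicate 3.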
